A study of Mus musculus with 4 samples.

Results

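Expression of 10 genes that endothelial cells share with blood stem cells was examined after low-dose irradiation in long-term haematopoietic stem cells (HSCs) of mice. The genes were Pecam1, Cdh5, Tek, Tie1, Esam, Eng, Sox18, Kdr, Emcn and Procr. They are 10 of 23185 genes with a symbol, and each was found on a single probe set, numbered by its Entrez gene. They were chosen for their known expression in endothelium and in stem cells, and Sox18 was also selected on its measured values, which were low on all irradiated arrays. That choice used the difference between irradiated and unirradiated arrays, so the differences from 0 Gy below are a description and carry no test.

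Marrow cells of mice, negative for lineage markers and positive for c-Kit and Sca, received 0, 0.02, 0.1 or 0.5 Gy of γ-irradiation and were then given to lethally irradiated recipients. All groups therefore share a transplantation into an irradiated host. By design, the 0 Gy group differs from the others in the dose given to the graft. Long-term HSCs were sorted from the marrow 6 months later by the same 3 criteria, the absence of Flk2 and CD48 and the presence of CD150. Each dose was measured on 1 array. There is thus no spread within a dose and no replicate check of any difference. Differences between recipients, sorts or arrays cannot be told apart from those of dose. For strain, age, number of recipients and pooling the labels give no entry.

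Blood stem cells arise in the embryo from haemogenic endothelium, and adult HSCs go on using several vascular receptors and adhesion proteins. TIE2, the product of Tek, binds angiopoietins and is known for its part in keeping HSCs quiescent in the marrow niche. The endothelial protein C receptor (Procr), the adhesion molecule ESAM and endoglin (Eng) are used to enrich HSCs in cell sorting. VE-cadherin (Cdh5) and the main receptor for vascular endothelial growth factor (Kdr) mark vessels and embryonic precursors, and are low in adult HSCs.

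Values are log2 intensities as deposited. A gene was kept when its mean over the 4 arrays reached the median of all gene means, 4.06, which left 11593 genes. Of the 10 genes, 8 passed. Cdh5 and Kdr did not, and their values are given with that limit. In this bulk RNA, a smaller share of cells that express a gene and less of its RNA per cell cannot be told apart. Array medians lay between 4.01 and 4.07. Exactly equal values on different arrays were common, and 46.3% of kept genes had at least 1 such tie.

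Sox18 had the widest range over the 4 arrays among the 10 genes, and Procr the next. Sox18 was lower on each irradiated array than at 0 Gy, and Procr was higher on each. Tie1 hardly varied, with a range of 0.10. Esam was higher at 0.02 Gy than on the other arrays, and Tek and Eng were lowest at 0.1 Gy. Pecam1 had an identical, lower value on all 3 irradiated arrays.

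**Figure D1:**
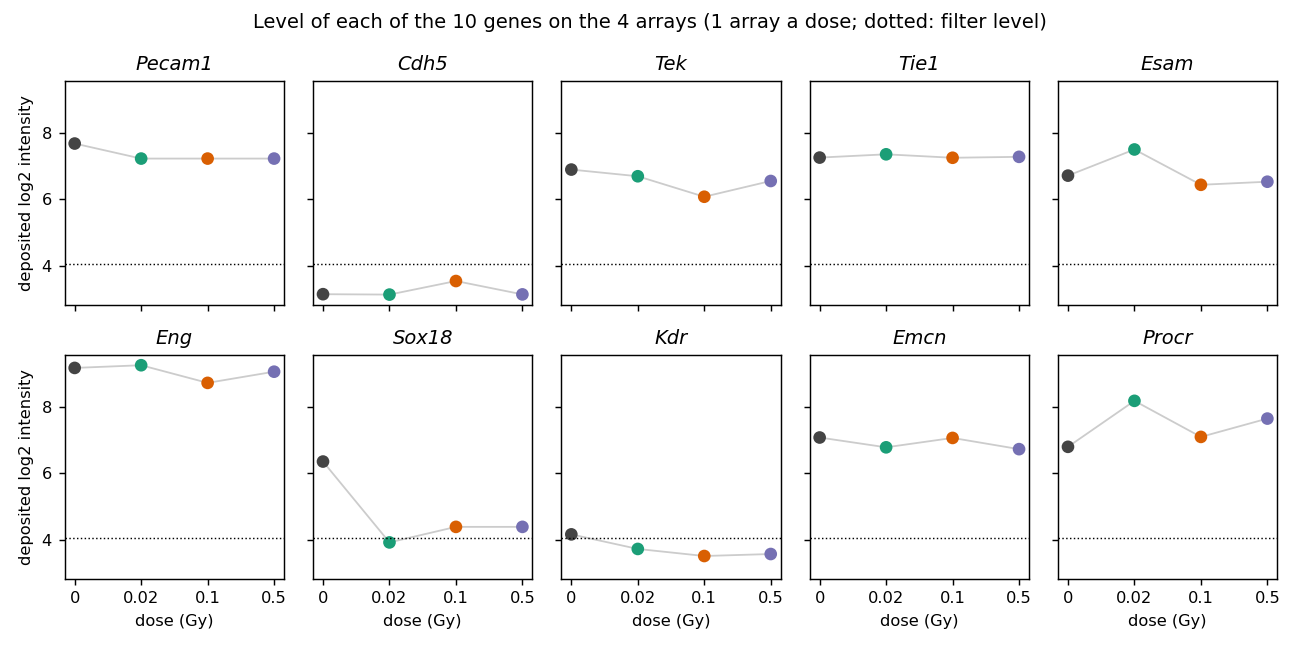
Deposited log2 intensity (vertical axis) of the 10 genes on the arrays at 0, 0.02, 0.1 and 0.5 Gy (horizontal axis, evenly spaced, 1 point an array), with the filter level of 4.06 dotted. Sox18 stood at 6.35 at 0 Gy and at 3.91 to 4.38 on the irradiated arrays, Procr peaked at 8.17 at 0.02 Gy, and Cdh5 lay below the dotted line on all arrays.

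Sox18 encodes a transcription factor of the SOXF group that acts in endothelial and lymphatic differentiation. Its log2 value was 6.35 without irradiation, 3.91 after 0.02 Gy and 4.38 after both 0.1 and 0.5 Gy. The 3 irradiated arrays lay within 0.47 of each other and at least 1.97 below the unirradiated array. The differences correspond to levels 5.40-fold lower at 0.02 Gy and 3.91-fold lower at both higher doses. At 0.02 Gy the value was below the filter level, so the size of that difference is uncertain. Among kept genes, 0.63% were at least as far from 0 Gy as Sox18 on the 0.02 Gy array, 0.897% on the 0.1 Gy array and 1.02% on the 0.5 Gy array. These shares describe a gene that was picked for being low. Ranked by its smallest decrease over the 3 doses, Sox18 was number 11 of 11593.

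The low values of Sox18 were shared with many other probe sets. On the 0.02 Gy array 39 other probe sets had exactly the Sox18 value, on the 0.1 Gy array 56 did and on the 0.5 Gy array 42 did, whereas 0 others had its value of 6.35 at 0 Gy. Between 17.4% and 19.7% of kept genes shared their value on an array with another probe set, and 1.02% to 1.68% lay on a value held by at least 40. The reduced level of Sox18 on irradiated arrays therefore rests on such values, and the part of the value assignment in its fold change was not tested. Among the other genes, Pecam1 shared its irradiated value with 7, 8 and 4 probe sets in order of dose, Tek its 0.1 Gy value with 12, Kdr its 0.1 Gy value with 7 and Emcn its 0.02 Gy value with 7. Procr, Esam, Eng, Tie1 and Cdh5 had values that no other probe set had on any array.

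The other SOXF genes, Sox7 and Sox17, had values under the filter level on every array. Sox7 was at 3.85, 3.55, 3.46 and 3.31 at 0, 0.02, 0.1 and 0.5 Gy, and Sox17 at 3.10 at 0 Gy and at most 3.39 on the other arrays. Neither was 1.5-fold from 0 Gy at any dose.

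Procr encodes a receptor of the protein C anticoagulant system and is a surface marker of HSCs. Its log2 value was 6.79 without irradiation, against 8.17, 7.09 and 7.64 after 0.02, 0.1 and 0.5 Gy. The unirradiated array was the lowest of the 4, but the lead of the 0.1 Gy array over it was only 0.30. Relative to 0 Gy the level was higher by 2.61-fold, 1.23-fold and 1.80-fold in order of dose. The irradiated arrays differed among themselves by 1.09, and 6.81% of kept genes had a range at least as wide among these 3 arrays. The order over dose was not monotonic.

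Tek and Tie1 encode the paired receptors of the angiopoietin system, TIE2 and its co-receptor TIE1. Tek had 6.89, 6.69, 6.07 and 6.54 at 0, 0.02, 0.1 and 0.5 Gy, and Tie1 had 7.25, 7.35, 7.24 and 7.27. Tek was lower than at 0 Gy on every irradiated array, most so at 0.1 Gy, where it was 1.76-fold lower. The Tek value at 0.02 Gy was 0.20 below 0 Gy. The Tie1 differences from 0 Gy were 0.10, -0.01 and 0.02, so the co-receptor was level where Tek dipped.

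Eng encodes endoglin, a co-receptor for ligands of the TGF-beta family such as BMP9. Its values were 9.17 without irradiation and 9.25, 8.72 and 9.05 after 0.02, 0.1 and 0.5 Gy. The 0.1 Gy array stood 0.44 below the mean of the other 3, as the Tek value did by 0.64. Kdr encodes VEGF receptor 2 and had 4.16, 3.72, 3.51 and 3.56 in order of dose. Only the unirradiated value exceeded the filter level, and the log2 differences were -0.44, -0.65 and -0.59. Differences of this size at such low intensities have an uncertain meaning for the amount of RNA.

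The start regions of Tek, Tie1 and Eng are shown because these 3 receptors of the vascular system differed in their values at 0.1 Gy. RefSeq windows of assembly GRCm38.p6, from 250 bases before to 50 after the annotated start, were found for 6 of the 10 genes: Tek, Tie1, Eng, Kdr, Emcn and Procr. A core of ETS factor sites was searched as AGGAAG. For SOX factors the letters were AACAAT. For GATA factors they were AGATAA. Both strands were searched, no match overlapped another, and capitals mark the matches. Sequences run 5′ to 3′ along the gene. The Tek window is chr4:94739039-94739338 on the plus strand, the Tie1 window chr4:118489800-118490099 on the minus strand and the Eng window chr2:32646345-32646644 on the plus strand.
Tek: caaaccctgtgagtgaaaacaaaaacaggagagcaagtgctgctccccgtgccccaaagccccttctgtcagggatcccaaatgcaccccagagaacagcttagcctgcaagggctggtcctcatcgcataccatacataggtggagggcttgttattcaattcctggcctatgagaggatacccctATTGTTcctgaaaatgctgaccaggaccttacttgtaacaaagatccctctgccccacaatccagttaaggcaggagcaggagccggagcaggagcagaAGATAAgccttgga
Tie1: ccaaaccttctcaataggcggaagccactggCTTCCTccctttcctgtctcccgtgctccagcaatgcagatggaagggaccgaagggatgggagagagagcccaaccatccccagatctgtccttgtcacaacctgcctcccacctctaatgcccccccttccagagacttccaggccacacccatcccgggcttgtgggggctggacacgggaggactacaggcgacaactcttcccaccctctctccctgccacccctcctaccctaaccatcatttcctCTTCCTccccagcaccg
Eng: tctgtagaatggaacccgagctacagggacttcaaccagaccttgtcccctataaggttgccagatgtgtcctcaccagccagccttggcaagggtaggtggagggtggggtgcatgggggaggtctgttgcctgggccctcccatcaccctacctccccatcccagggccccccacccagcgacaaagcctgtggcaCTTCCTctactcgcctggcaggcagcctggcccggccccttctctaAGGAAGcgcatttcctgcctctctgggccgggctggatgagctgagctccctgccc
The Tek window held 1 SOX and 1 GATA match and 0 ETS matches, and the Tie1 and Eng windows 2 ETS matches each and none of the others. Emcn held 2 ETS matches and 1 SOX match, and the Kdr and Procr windows held 0 matches. Of all 32851 windows, 35.4% contained the ETS letters, 10.7% the SOX letters and 11.2% the GATA letters. The Eng and Tie1 windows thus shared the ETS letters, and the Tek window shared none of the 3 matches with either. Only these exact letters were searched, and their part in the array values was not tested.

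Among the adhesion genes, Esam encodes an immunoglobulin-type adhesion molecule of endothelial tight junctions and platelets. Its log2 values were 6.71, 7.49, 6.43 and 6.52 in order of dose. The 0.02 Gy array was the high one, at 1.73-fold over 0 Gy, and the other irradiated arrays were slightly below the unirradiated array. Pecam1 encodes CD31, an adhesion molecule of endothelium, platelets and leukocytes, and had 7.67 at 0 Gy and 7.22 at each irradiated dose. The difference of -0.45 corresponds to a 1.37-fold lower level. An identical value on all 3 irradiated arrays that differed from the 0 Gy value occurred in 3.44% of kept genes.

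Cdh5 encodes VE-cadherin, the defining adherens junction protein of vessels. It was at 3.14, 3.13, 3.53 and 3.13 in order of dose, all below the filter level. Emcn encodes the sialomucin endomucin, which is found on sinusoidal vessels and on HSCs. Its values were 7.07, 6.78, 7.06 and 6.72 in order of dose. The 0 and 0.1 Gy arrays differed by 0.01, and the 0.02 and 0.5 Gy arrays lay close together at a lower level.

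**Figure D2:**
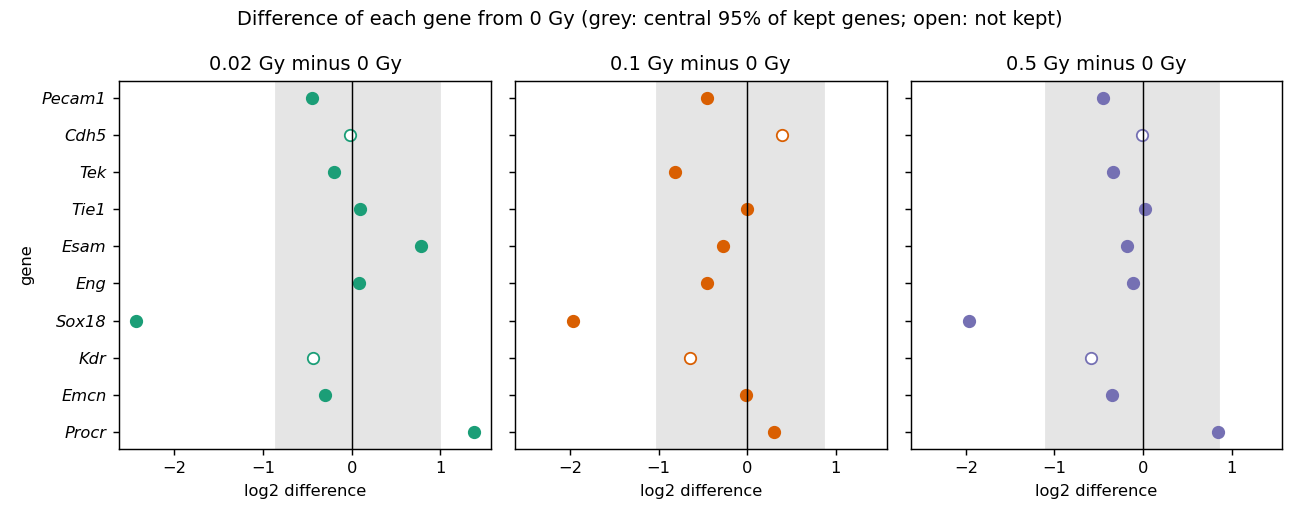
Log2 difference from the 0 Gy array (horizontal axis) of each gene (vertical axis) at 0.02, 0.1 and 0.5 Gy, with the central 95% of 11593 kept genes in grey and open points for Cdh5 and Kdr, which were not kept. Sox18 lay outside the grey band at all 3 doses, and Procr outside it at 0.02 Gy, where the band ended at 0.998.

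Counts at 1.5-fold were small and are set beside all kept genes. At 0.02 Gy, 2 of the 8 kept genes, Esam and Procr, were at least 1.5-fold higher than at 0 Gy and 1, Sox18, was lower. Of all kept genes, 6.44% were higher and 6.2% lower. For 0.1 Gy the counts were 0 higher and 2 lower, Tek and Sox18, against 5.5% and 7.48% of kept genes. At 0.5 Gy, Procr was higher and Sox18 lower, against 5.92% and 8.25%. Kdr, which was not kept, was also past 1.5-fold lower at 0.1 and 0.5 Gy. Sox18, selected for its low irradiated values, was alone among the 10 in being lower at all 3 doses by this measure. Of kept genes, 2.04% were.

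The median difference of the 10 genes from 0 Gy was -0.11, -0.36 and -0.26 in order of dose, and -0.01, -0.28 and -0.18 without Sox18. Over the 8 kept genes the 0.02 Gy median was -0.06, and it turned to 0.081 without Sox18 or under the stricter filter and to 0.14 against the average of the remaining 3 arrays, so it has no settled direction. Over the same 8 genes the 0.5 Gy median was -0.26, and -0.080 against that average. The median of all named genes was 0 at each dose. The unirradiated array was above every irradiated array for 5 of the 10 genes, Pecam1, Tek, Sox18, Kdr and Emcn, and for 19.9% of all named genes. It was below every irradiated array for Procr alone, and for 18.6% of all named genes. All 3 comparisons share the 0 Gy array, so a single high or low value on it enters each of them.

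Differences between irradiated arrays do not involve the 0 Gy array. Esam was 2.09-fold lower at 0.1 than at 0.02 Gy, Procr was 2.12-fold lower and Tek 1.53-fold lower. These are 3 of the 8 kept genes, against 8.15% of kept genes that were lower by 1.5-fold or more, and 0 of the 8 were higher, against 5.9%. At 0.5 Gy relative to 0.02 Gy, Esam was 1.96-fold lower and was the only one of the 8 past 1.5-fold, with 5.92% of kept genes higher and 8.62% lower. Between 0.5 and 0.1 Gy, 0 of the 8 were past 1.5-fold in either direction, where 5.91% of kept genes were higher and 6.51% lower. The widest of these was Procr, 1.47-fold higher at 0.5 Gy.

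The order of arrays was shared by several genes. Tie1, Esam, Eng and Procr had their highest value at 0.02 Gy, 4 of the 10 genes, as had 17.7% of all named genes. Tek, Tie1, Esam, Eng and Kdr had their lowest value at 0.1 Gy, 5 of the 10, as had 18% of all named genes. For Tie1 both extremes lay within its range of 0.10.

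The ligands and partners of these receptors were measured on the same arrays. Angpt1, the main TIE2 ligand, was at 10.17, 10.09, 10.03 and 10.11 in order of dose, so it stayed within 0.14 of 0 Gy. Of 8 genes of the angiopoietin and TIE list, Angpt2, a context-dependent antagonist of TIE2, was past 1.5-fold higher at 0.1 Gy with a value of 3.90, still under the filter level, and Tek was past it lower. Ptprb, the phosphatase that acts on TIE2, was at 2.85 to 2.54. Dok2, an adaptor that TIE2 can bind, was at 6.23, 5.87, 6.13 and 6.54. At 0.02 and 0.5 Gy, 0 of the 8 were past 1.5-fold. The list medians were -0.13, -0.12 and -0.12.

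Of 10 VEGF ligands and receptors, Kdr was the only one past 1.5-fold at any dose. The ligand gene Vegfa was at 6.93, 7.16, 6.72 and 7.20 in order of dose. Flt1, which encodes VEGF receptor 1, was at 3.07 on 3 arrays and at 3.46 at 0.5 Gy, and the ligand gene Vegfd was at 2.70, 2.61, 2.41 and 2.60, all under the filter level.

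Of 14 genes of the endoglin and BMP9 receptor pathway, 3 were past 1.5-fold on the higher side at 0.02 Gy, and 0 were past it on the lower side at any dose. Bmpr2, the type II receptor that works with endoglin, was at 7.09, 8.29, 7.49 and 7.43 in order of dose, with the 0.02 Gy array high. The inhibitory SMAD genes Smad7 and Smad6 were the others. Smad7 was at 7.41 at 0 Gy and at 8.29, 7.94 and 8.31 on the irradiated arrays, and Smad6 at 3.35, 4.01, 3.24 and 2.87, under the filter level. Acvrl1, which encodes the endothelial type I receptor ALK1, was at 3.51 to 3.77, also under it. Smad7 was the only gene past 1.5-fold at 0.5 Gy, and 0 were at 0.1 Gy.

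On the 0.02 Gy array, 4 of 14 endothelial junction genes were past 1.5-fold on the higher side and 0 on the lower. Beside Esam these were Jam2, Cldn5 and Tjp1. Jam2, a junctional adhesion molecule of endothelium, was at 6.62, 7.54, 4.30 and 4.94 in order of dose, and so had the order of Esam with wider gaps. The tight junction gene Cldn5 was at 5.64 at 0.02 Gy and at 3.01 to 3.62 on the other arrays. Tjp1, which encodes the scaffold ZO-1, was at 6.97 at 0 Gy and at 8.27, 7.90 and 7.48 on the irradiated arrays. At the middle dose 2 of the 14 were higher and Jam2 was lower. After 0.5 Gy the list had 1 higher gene and 2 lower ones. Cldn5 was not kept, and it was 1 of the higher genes at 0.02 Gy and 1 of the lower ones at 0.5 Gy. Of the 12 kept genes of the list, 3 were higher at 0.02 Gy and 1 was lower at 0.5 Gy. Among all named genes, 4.59% were higher and 4.27% lower by this measure at 0.02 Gy. The shares were 3.99% and 4.94% at 0.1 Gy, and 4.36% and 5.39% at 0.5 Gy. These are the background for each pathway list over all its measured genes. Among kept genes the shares were larger, at 6.44% and 6.2%, 5.5% and 7.48%, and 5.92% and 8.25% in order of dose. These apply to the kept genes of a list, such as the 12 here.

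**Figure D3:**
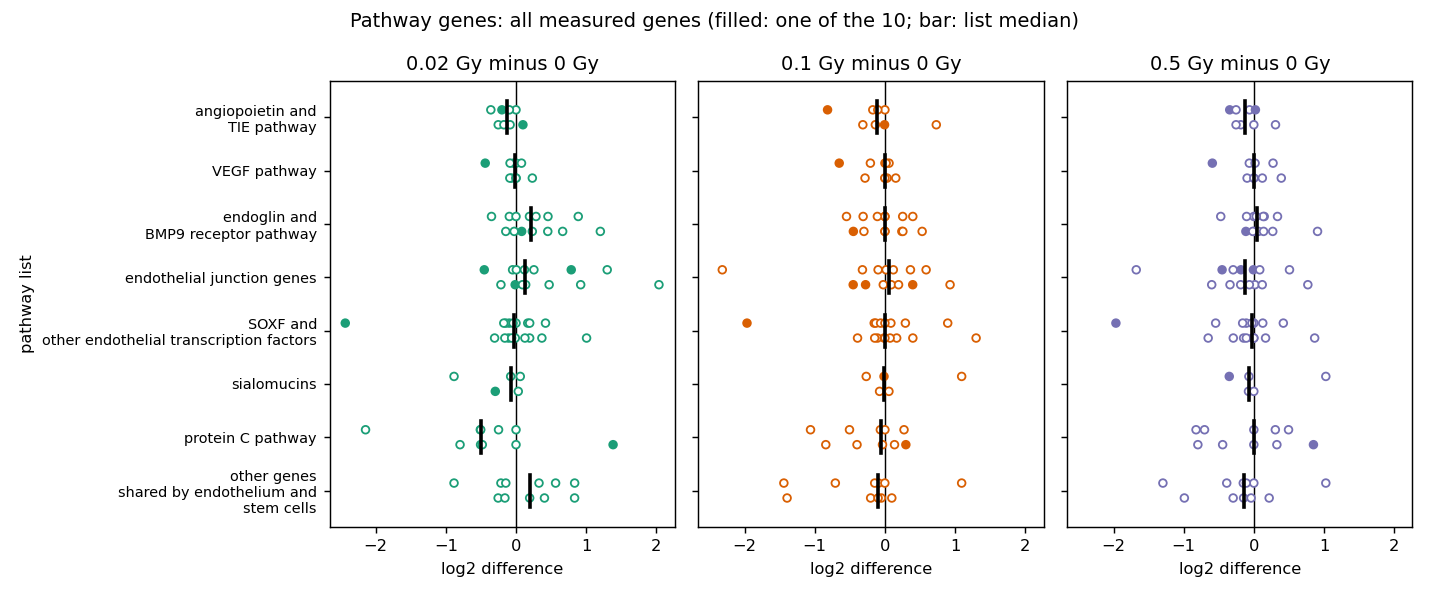
Log2 difference from 0 Gy (horizontal axis) of every measured gene in 8 pathway lists (vertical axis) at the 3 doses, with the 10 genes filled, others open and a bar at each list's median. Sox18 at -2.43, -1.97 and -1.97, Jam2 at -2.32 at 0.1 Gy and Tfpi at -2.14 at 0.02 Gy stood far to the left. The list medians lay between -0.49 and 0.21.

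Of the 18 endothelial transcription factor genes, 10 were kept. Only Sox18 was at least 1.5-fold lower at 0.02 and 0.1 Gy, and it was selected for being low on the irradiated arrays. At 0.5 Gy Nr2f2, which encodes the venous factor COUP-TFII, was also lower, at 3.17 against 3.82 and so under the filter level on both arrays. On the higher side, 1, 2 and 1 of the 18 were past 1.5-fold in order of dose: Klf4 at 0.02 and 0.5 Gy, and Klf2 and Hey1 at 0.1 Gy. Klf2, like Klf4 a flow-responsive factor, was at 7.70, 8.12, 8.60 and 8.12. The ETS factor gene Erg was at 9.78, 9.98, 9.78 and 9.68 in order of dose, and Fli1 at 10.13, 10.25, 9.97 and 10.13. Klf4 was at 6.28, 7.29, 6.36 and 7.15, with the 0.02 and 0.5 Gy arrays high. The Notch target Hey1 reached 4.81 at 0.1 Gy and was at 3.51 to 3.88 elsewhere.

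In the protein C list, 10 of 11 genes were matched, and Procr was the only gene of the list past 1.5-fold on the higher side. Thbd encodes thrombomodulin, which activates protein C together with thrombin, and was at 6.16, 5.65, 5.10 and 5.46 in order of dose. Tfpi, the tissue factor pathway inhibitor gene, was at 3.46 at 0.02 Gy and at 5.61, 5.61 and 6.10 at 0, 0.1 and 0.5 Gy. F3, which encodes tissue factor, was past 1.5-fold lower at all 3 doses, but its values of 3.40, 2.60, 2.55 and 2.60 were all under the filter level. F2rl2, a thrombin receptor gene, was at 7.57, 7.07, 7.71 and 7.90. At 0.02, 0.1 and 0.5 Gy, 1, 0 and 1 of the 10 were at least 1.5-fold higher and 2, 2 and 3 were lower.

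Cd34, a sialomucin related to endomucin and a marker of vessels and of progenitors, did not have the order of Emcn. Cd34 stood at 8.68 without irradiation, at 7.79 after the lowest dose and at 9.77 and 9.70 after 0.1 and 0.5 Gy. Podxl, which encodes podocalyxin, was at 6.25, 6.32, 5.99 and 6.18, and Podxl2 at 3.76 at 0 Gy and 3.68 on the other 3 arrays. Cd34 was the only 1 of the 5 sialomucin genes past 1.5-fold, lower at 0.02 Gy and higher at 0.1 and 0.5 Gy.

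Of 12 other genes shared by endothelium and stem cells, 11 were matched. Vwf, which encodes von Willebrand factor, was at 8.58, 8.98, 7.14 and 7.28 in order of dose, and Ramp2, a co-receptor for adrenomedullin, at 5.03, 5.86, 3.63 and 4.04. Both were high at 0.02 Gy and low at 0.1 and 0.5 Gy, the order seen for Esam and Jam2. By 1.5-fold or more, 2 of the 11 were higher and 1 lower on the 0.02 Gy array. The counts were 1 and 3 on the 0.1 Gy array, and 1 and 2 on the 0.5 Gy array. All 11 were kept, so the shares among kept genes are their background.

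Genes with patterns most like those of Sox18 and Procr were found by the Euclidean distance between the 3 log2 differences from 0 Gy, over 4 arrays and all kept genes. Nearest to Sox18 were Slc17a8, a vesicular glutamate transporter gene, at a distance of 0.40, the chemokine gene Cx3cl1 at 0.59, Gemin8 at 0.61, Fam171a1 at 0.64 and the respiratory chain gene Cox7a1 at 0.70. Slc17a8 was at 6.60 at 0 Gy and at 4.25, 4.41 and 4.30 on the irradiated arrays. Nearest to Procr were Lag3 at 0.13, Ypel1 at 0.14, Zxdb at 0.24, Rasgef1b at 0.25 and Lacc1 at 0.26. A distance of at most 1 from Sox18 was found for 9 genes and from Procr for 409. The distance was not scaled to the size of the differences, which were larger for Sox18. These counts therefore do not compare how common the patterns were.

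**Figure D4:**
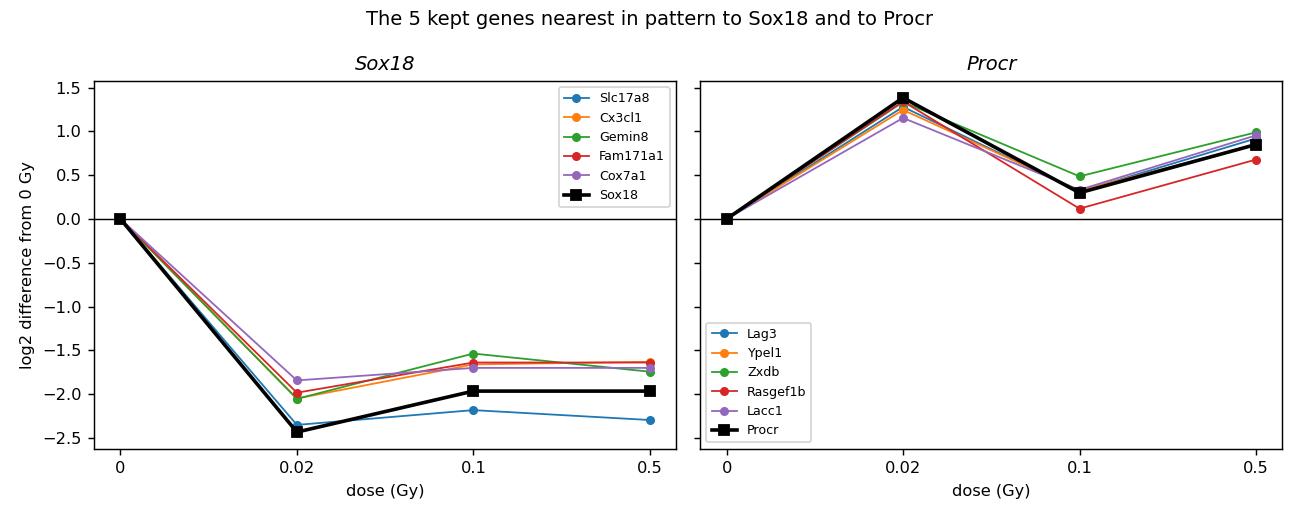
Log2 difference from 0 Gy (vertical axis) at each dose (horizontal axis, evenly spaced) for Sox18 and Procr (black squares) and the 5 kept genes nearest to each (coloured circles). The neighbours of Sox18 ran between -1.54 and -2.35 at the 3 doses, and those of Procr peaked at 0.02 Gy.

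Markers of the sort and of other cells that could carry the same genes were set beside the label of the sorted cells. The purity of the sort was not tested. Kit was at 10.16, 10.57, 10.40 and 10.12 in order of dose and Slamf1, which encodes CD150, at 7.67, 8.65, 7.16 and 7.77. The excluded Flt3 was at 4.46 to 5.44, above the filter level on all arrays. Cd48, also excluded, was at 4.13, 3.08, 4.11 and 4.13 in order of dose, under that level only at 0.02 Gy. Ly6a, the gene of Sca, had no match. Of 20 genes of a list labelled vessel-restricted endothelial, 3, 2, 2 and 3 reached the filter level at 0, 0.02, 0.1 and 0.5 Gy. The label is loose, since Fabp4 is also expressed in fat cells. The summed linear intensity of the list was 267 to 308. Ecscr reached the filter level on every array, and Fabp4 on all but the 0.02 Gy array. Ephb4 reached it only at 0 Gy, with 4.17, Cldn5 only at 0.02 Gy, with 5.64, and Lyve1 only at 0.5 Gy, with 4.20. Flt1, Stab2 and Plvap, also of this list, were under that level on every array. Of the vessel genes outside the list, Cdh5 was under it on every array, and Kdr reached it only at 0 Gy, with 4.16. Of 13 stromal and pericyte genes, 2 reached it on each array. The summed intensity of that list was 167, 146, 153 and 157 in order of dose, highest at 0 Gy. Cxcl12 was the only gene of that list past 1.5-fold from 0 Gy at any dose. Its value was 5.36 at 0 Gy and 4.53 to 4.54 on the irradiated arrays. The stromal sum was not taken without Cxcl12, so its order may rest on this gene. The vessel sum was also highest at 0 Gy, at 308 against 267 to 274 on the irradiated arrays. Much of this came from Ecscr and Fabp4, the 2 of 20 genes that passed the filter. Without them, a step chosen after seeing the data, the vessel sum was 193, 217, 189 and 185 in order of dose. It was then highest at 0.02 Gy, where Cldn5 was high. With Cldn5 left out as well, it was 180, 167, 177 and 177, again highest at 0 Gy. The vessel list medians were -0.05, 0.00 and -0.01 relative to 0 Gy. The part of vessel cells in the Sox18 difference was not tested.

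The other marker lists differed between arrays. The mean log2 level of 11 megakaryocyte genes, from a lineage that also expresses Esam and Pecam1, was 7.66, 7.61, 7.07 and 7.19 in order of dose, and the summed intensity was 2820 to 4142. It was thus low at 0.1 and 0.5 Gy, where Esam and Tek were also under their values at 0 and 0.02 Gy. For Tek the 0.5 Gy value differed from that at 0.02 Gy by only -0.14. Of the 10 kept megakaryocyte genes, 5 were at least 1.5-fold lower at 0.1 Gy and 4 at 0.5 Gy, and 0 were higher. Among all kept genes, 7.48% and 8.25% were lower. Vwf, 1 of these genes, is also in the list of genes shared with stem cells. The mean log2 level of 8 B and plasma cell genes was 6.63, 7.56, 6.02 and 5.38, highest at 0.02 Gy like Esam and Procr. That of 10 neutrophil genes was 4.02, 4.47, 5.77 and 4.76, highest at 0.1 Gy where Tek and Eng were lowest. Of the 8 B and plasma cell genes, 6, 7, 7 and 4 reached the filter level in order of dose, with Igkc at 11.70 to 12.83. Of the 10 neutrophil genes, 3, 4, 7 and 6 did. The part of these cell types in the values of the 10 genes was not tested.

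**Figure D5:**
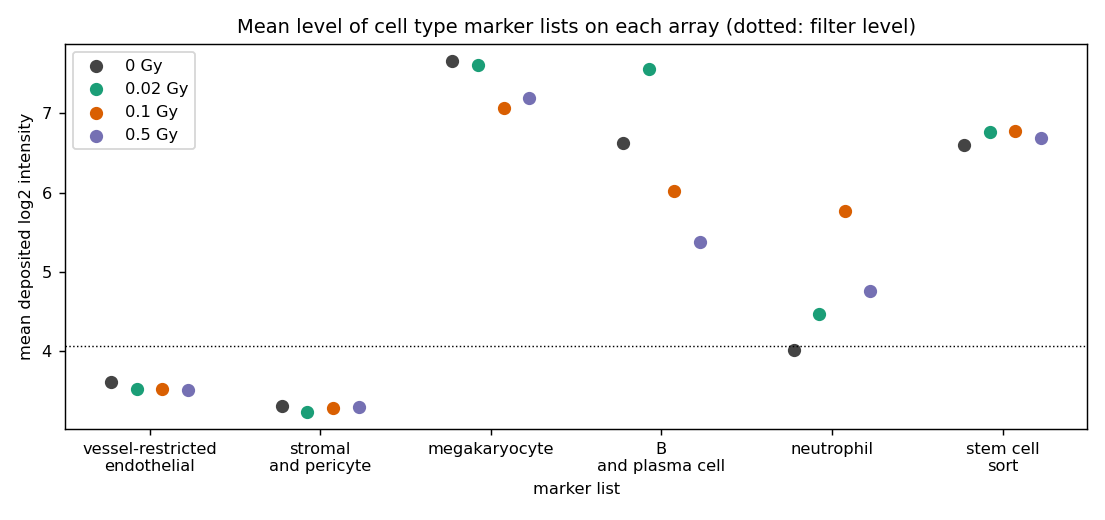
Mean deposited log2 intensity (vertical axis) of 6 cell type marker lists (horizontal axis) on each of the 4 arrays, with the filter level of 4.06 dotted; arrays should be compared within a list. The list labelled vessel-restricted endothelial stayed between 3.51 and 3.61. The B and plasma cell list ranged from 5.38 to 7.56 and the neutrophil list from 4.02 to 5.77.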

How the data were processed

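Expression was measured on 4 arrays, 1 a dose, grouped by dose as labelled. The authors deposited log2 intensities, 1 per Entrez gene probe set (the base is inferred from values that span 1.22 to 13.0). The submitters' processing notes name Partek. Background correction, normalization and build were not given in the sources used here. Arrays carry no read depth, so their number limits the precision.

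Of 25206 probe sets, 23185 had a symbol in the platform table, and 2021 were left out. Values were used as deposited. Log2 differences were taken between each irradiated array and the 0 Gy array and between pairs of irradiated arrays, with counts at 1.5-fold. The difference and counting step was tested on simulated data without noise, which checks its arithmetic only. The members and lists were chosen with earlier results of these data known. Named genes are the 10 members, the genes of each pathway list past 1.5-fold in the same direction at all 3 doses, and up to 3 others a list with the widest range, the 5 nearest in pattern to Sox18 and to Procr, and the sort markers. Angpt1, Sox7, Sox17, Acvrl1, Erg, Fli1, Klf2 and the vessel markers were named for their roles outside that rule, after their values were seen. Alternatives were quantile normalization and cyclic loess (limma 3.58.1 in R 4.3.3), median centring, all genes unfiltered, a stricter filter on gene means (7729 genes), 2-fold, the average of the remaining 3 arrays in place of 0 Gy, and leaving out Sox18.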

Additional observations from a re-analysis of the deposited data

How the results depend on the processing

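Rescaling left the values of the 10 genes nearly as they were: the largest shift of any difference from 0 Gy was 0.06 with quantile normalization, 0.05 with median centring and 0.07 with cyclic loess, and the counts of kept genes at 1.5-fold stayed within 1.5 times. At 2-fold, 1 gene was higher at 0.02 Gy in place of 2, 1 was lower at 0.1 Gy in place of 2 and 0 were higher at 0.5 Gy in place of 1. Under the stricter filter, which drops Sox18, 0 genes were lower at 0.02 Gy, 1 at 0.1 Gy and 0 at 0.5 Gy, and the median of the kept genes at 0.02 Gy was 0.081 in place of -0.06. Without Sox18 that median was 0.081 as well, so its sign rests on this gene. Over all 10 genes, with Sox18 left out after seeing the data, the medians moved by less than 0.1 at each dose. With no filter, 2 genes were lower at 0.5 Gy in place of 1, Kdr being the addition. Set against the average of the remaining 3 arrays, the median was 0.14 at 0.02 Gy and -0.080 at 0.5 Gy, in place of -0.06 and -0.26, and 25 of the 30 single differences moved by 0.1 or more. A Sox18 difference taken this way is smaller by construction, since the other irradiated arrays enter the control. No paired analysis was possible because each dose has a single array. For the same reason no array could be left out of a group, and signals under the filter level limit what can be said of Cdh5, Kdr and Sox18 at 0.02 Gy.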

Other observations

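Some genes of the marker lists had wide differences that the comparisons above do not describe in full. These genes were chosen after their values were seen. Cxcl12, the chemokine that holds HSCs in the marrow, was at 5.36 at 0 Gy and at 4.53, 4.53 and 4.54 on the irradiated arrays. Gp1bb, a subunit of the platelet receptor for von Willebrand factor, was at 7.50 at 0 Gy and at 6.54, 6.30 and 6.43 on them. Selp, which encodes the P-selectin of platelets and endothelium, was at 8.12, 8.69, 6.97 and 6.99 in order of dose, the order given above for Vwf. Ecscr, an endothelial surface gene, was at 5.64, 5.35, 4.31 and 4.97, lowest at 0.1 Gy like Tek. Fabp4, the fatty acid binding protein of fat cells and capillaries, was at 6.03, 4.04, 5.84 and 5.74 in order of dose, and so was low on a single array.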
